A study of Homo sapiens with 6 samples.

Results

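A group of 10 genes of the bone morphogenetic protein (BMP) branch of SMAD signalling were followed in MDA-MB-231, an established human triple-negative breast cancer cell line, by bulk RNA-seq. They were chosen by gene name: the 4 ID genes (ID1, ID2, ID3 and ID4), the inhibitory SMADs SMAD6 and SMAD7, the signal-carrying SMADs SMAD1 and SMAD5, and the BMP receptors BMPR1A and BMPR2. All 10 were found once each among the 58735 rows of the deposited tables, and all 10 were among the 15881 genes with enough counts to be tested. All cells were of the WT genotype, were stained with the membrane dye PKH26, which is diluted at each division, and were grown on for 12 days before sorting. The brightest 1% formed the slow-cycling group (SCC). The rapid-cycling group (RCC) was described as moderate in dye by the protocol and as low in dye by the sample characteristics. Each group had 3 biological replicates, 6 libraries in all from 1 cell line, and the series asks how expression in the dye-retaining cells differs from that in proliferating cells.

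BMP ligands bring together type I receptors such as BMPR1A and the type II receptor BMPR2. The type I receptors then phosphorylate SMAD1 and SMAD5. These enter the nucleus with SMAD4 and switch on a small set of direct targets, the ID genes foremost. ID proteins are helix-loop-helix proteins without a DNA-binding region. They hold E proteins, the partners of tissue-specific transcription factors, away from DNA, and are known for keeping cells undifferentiated and dividing. SMAD6 and SMAD7 are also induced by the pathway and close a negative feedback loop on the receptors. SMAD7 acts on TGF-beta as well as BMP receptors, and SMAD6 mainly on the BMP side.

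The SCC libraries held 19498054 to 27831824 summed counts and the RCC libraries 17655855 to 22746267. SCC replicate 1 stood apart: chi-square divided by its degrees of freedom was 28.4 for replicates 1 and 2 of SCC and 3.28 for replicates 2 and 3. Its deviation followed GC content, with a median log2 deviation of 0.38 in the decile of genes richest in GC and -0.23 in the poorest decile, against -0.15 to 0.10 in the other libraries. All 8 markers listed for the line were present, and their summed level was 3509 to 3727 counts scaled to library size (CPM) in SCC and 3367 to 3472 CPM in RCC. Among genes that this line lacks or holds at low level, ESR1 and PGR stayed at or below 0.696 CPM in every library, and EPCAM was at 3.83 to 4.90 CPM in SCC and 3.61 to 5.73 CPM in RCC. The 6 leukocyte markers summed to 0.971 to 3.49 CPM in SCC and 0.908 to 1.06 CPM in RCC, the highest value being that of SCC replicate 1. PTPRC, the leukocyte marker that defines the list, was at 1.97, 0.256 and 0.711 CPM in SCC replicates 1 to 3 and at 0.143 to 0.559 CPM in RCC. ITGAM, another of the 6, was higher in every SCC library, at 0.964, 0.358 and 0.332 CPM against 0.130, 0.143 and 0.112 CPM in RCC, with at most 26 counts. CD3E had at most 1 count in any library. The part of these markers in the results below was not tested.

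ID2, SMAD7 and ID4 rose in SCC, and the other 7 members did not pass the test. The rise was 2.39-fold for ID2, 2.02-fold for SMAD7 and 1.44-fold for ID4, and 0 members fell. These 3 of 10 stand beside 1.69% of all tested genes called higher and 0.378% called lower. A call was a Benjamini-Hochberg adjusted p under 0.05 in the edgeR quasi-likelihood fit. Without adjustment, 5 of the 10 members had p under 0.05, all 5 of them higher in SCC, where 11.4% of all tested genes were higher and 8.27% lower at that threshold. The median log2 fold change of the 10 members was 0.20, beside 0.00 over all tested genes. Every SCC library lay above every RCC library for ID2, ID3, ID4 and SMAD7, and below for SMAD5, where 14.4% and 13.4% of all tested genes did so. An offset for GC content gave 490 genes higher (3.09%) and 288 lower (1.81%) in place of 268 and 60, and ID2, SMAD7 and ID4 were called with it too (adjusted p = 1.5e-04, 2.0e-05 and 0.00622). In bulk RNA a change in the share of cells that express a gene and a change in the amount per cell cannot be told apart.

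**Figure D1:**
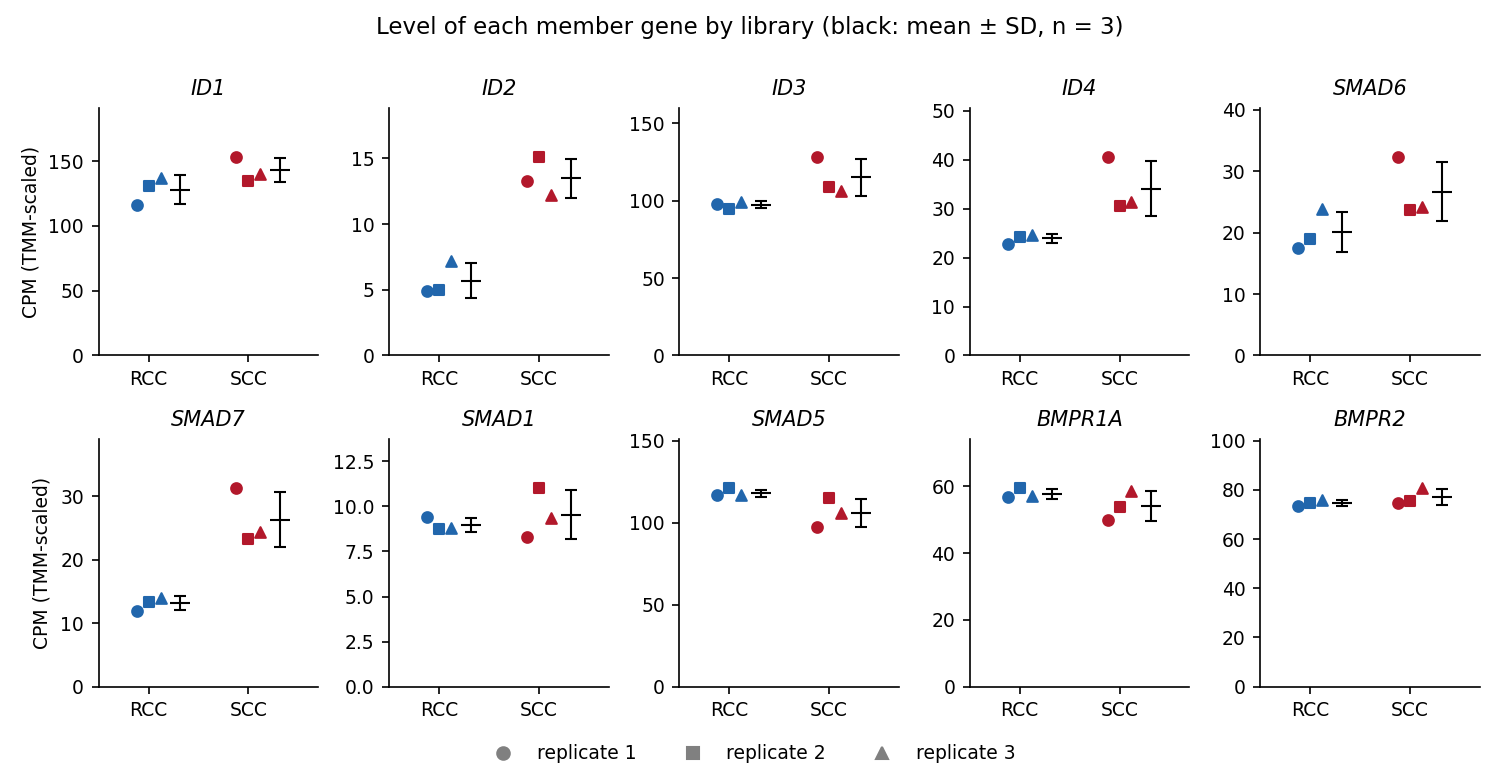
Level of the 10 member genes in TMM-scaled CPM (vertical axes from 0) in 3 RCC (blue) and 3 SCC (red) libraries; marker shapes give the replicate number, and black bars the mean and SD. The SCC points for ID2 (12.2 to 15.1 CPM) and SMAD7 (23.3 to 31.2 CPM) lie clear of the RCC points, whereas those for BMPR2, SMAD1 and ID1 overlap them.

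The ID genes had very different levels. On the scale per gene length, in the deposited FPKM (fragments scaled by gene length and library depth), ID1 was the most abundant at 104 ± 9.11 FPKM in RCC (SD, n = 3), followed by ID3 at 53.9 ± 0.928, ID4 at 10.1 ± 0.427 and ID2 at 2.58 ± 0.590. In SCC the order was the same, with ID1 at 115 ± 6.74 FPKM, ID3 at 63.3 ± 6.16, ID4 at 14.4 ± 2.25 and ID2 at 6.10 ± 0.672 (SD, n = 3). No neighbours in this order overlapped in either group. The summed ID level was 190 to 216 FPKM in SCC and 159 to 179 FPKM in RCC. ID1 and ID3 made up most of that sum in every library. ID2 contributed 2.76% to 3.60% of it in SCC and 1.31% to 1.82% in RCC, and ID4 6.84% to 7.90% against 5.82% to 6.06%, neither range overlapping between groups.

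ID2 (ENSG00000115738, chromosome 2, 8678845 to 8684453 on GRCh38), the least abundant ID gene, showed the largest change of the 10 members. It was at 13.3, 15.1 and 12.2 CPM in SCC replicates 1 to 3 and at 4.91, 4.97 and 7.22 CPM in RCC replicates 1 to 3. The lowest SCC library was thus well above the highest RCC library, and SCC replicate 1 was not the highest of its group. SCC over RCC gave a log2 fold change of 1.26 (SE 0.166, edgeR, adjusted p = 0.00213). ID2 ranked 82 of the 15881 tested genes by p. Its antisense neighbour ID2-AS1 had at most 3 counts in any library.

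ID4 (ENSG00000172201, chromosome 6, 19837386 to 19840684), the ID gene that can also oppose the other ID proteins, rose by less and passed the threshold narrowly. It was at 40.5, 30.5 and 31.4 CPM in SCC replicates 1 to 3 and at 22.8, 24.2 and 24.6 CPM in RCC. The groups did not overlap, and SCC replicate 1 was the highest library. The log2 fold change came to 0.52 (SE 0.115, edgeR, adjusted p = 0.0466), and 0.38 without SCC replicate 1 (0.00636). The call was lost when SCC replicate 3 was dropped (adjusted p = 0.0705) or RCC replicate 1, 2 or 3 (0.218, 0.164 and 0.167), and with limma on FPKM values (0.114 to 0.323). AL022068.1, an antisense gene that overlaps it, had 50, 21 and 21 counts in SCC and 15, 23 and 26 in RCC, against 439 to 1093 counts of ID4. Use of strand was not given in the sources used here, so reads of the overlap cannot be assigned to either gene.

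ID1 and ID3, the abundant pair that usually answers BMP together, did not pass the test. ID1 (ENSG00000125968, chromosome 20, 31605283 to 31606515) was at 153, 135 and 140 CPM in SCC and at 116, 131 and 137 CPM in RCC replicates 1 to 3, so that SCC replicate 2 lay below RCC replicate 3. This gave a log2 fold change of 0.16 (SE 0.081, edgeR, adjusted p = 0.302). ID3 (ENSG00000117318, chromosome 1, 23557918 to 23559794) was at 128, 109 and 106 CPM in SCC and at 98, 94.7 and 98.8 CPM in RCC. Here the groups did not overlap, but the log2 fold change of 0.24 with a standard error of 0.082 was not called (edgeR, adjusted p = 0.156). Both genes are rich in GC (58.6% and 57.2% in the longest transcript), and with an offset for GC content their log2 fold changes were 0.0041 (adjusted p = 0.980) and 0.11 (0.228).

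Ratios of ID genes were also taken within each library. The log2 ratio of ID1 to ID2 was 3.47, 3.12 and 3.47 in SCC and 4.43, 4.59 and 4.16 in RCC replicates 1 to 3. The groups did not overlap, and the difference of means was -1.04. The ratio of ID2 to ID3 differed by 0.96 in the other direction, also without overlap. That of ID1 to ID3 differed by -0.08 and did overlap, with 0.32 ± 0.07 in SCC and 0.40 ± 0.13 in RCC (SD, n = 3). By a two-sided exact permutation test the raw p was 0.1 for the first 2 ratios, the smallest that 3 against 3 libraries allow, and 0.4 for the last. Adjusted over the 8 pairs of members compared they were 0.114, 0.114 and 0.400, so no pair could pass the threshold. Of the 8 pairs, only ID1 to ID3 overlapped between groups, so a lack of overlap does not set a pair apart.

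The 250 bases before the RefSeq start of ID1 and ID4 are shown because one gene was called and the other was not (GRCh38.p14, 5′ to 3′ on the plus strand). Capitals mark TATAAA or its reverse complement, the TATA box that places the start of transcription.
ID1, chr20:31605039-31605288: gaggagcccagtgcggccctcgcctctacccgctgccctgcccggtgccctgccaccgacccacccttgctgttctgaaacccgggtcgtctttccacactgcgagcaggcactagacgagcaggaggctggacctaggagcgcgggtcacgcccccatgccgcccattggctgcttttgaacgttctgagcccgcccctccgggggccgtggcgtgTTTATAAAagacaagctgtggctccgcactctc
ID4, chr6:19837120-19837369: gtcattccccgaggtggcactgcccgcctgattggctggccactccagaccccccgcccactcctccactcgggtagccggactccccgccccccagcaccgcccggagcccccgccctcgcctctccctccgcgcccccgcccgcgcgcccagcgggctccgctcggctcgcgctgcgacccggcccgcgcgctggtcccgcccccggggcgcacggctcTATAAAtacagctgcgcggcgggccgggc
The forward TATAAA began 31 bases before the start in ID1 and 29 bases before it in ID4. TATAAA on either strand was found in 10.7% of all 35116 windows of this length. Neither window held the GC-rich SMAD element GGCGCC, the SMAD palindrome GTCTAGAC, the AP-1 site TGANTCA or the cAMP element TGACGTCA on either strand, motifs present in 16.4%, 0.182%, 6.57% and 1.65% of windows. The ID2 and ID3 windows held none of these 4 motifs and no TATAAA. They lie mostly within annotated exons and are not printed.

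Of the inhibitory SMADs, SMAD7 rose in SCC and SMAD6 did not pass the test. SMAD7 (ENSG00000101665, chromosome 18, 48919853 to 48952052), which recruits ubiquitin ligases to the receptors, was at 31.2, 23.3 and 24.4 CPM in SCC replicates 1 to 3 and at 11.9, 13.4 and 14.0 CPM in RCC. Every SCC library was above every RCC library, with SCC replicate 1 the highest. The log2 fold change came to 1.01 (SE 0.130, edgeR, adjusted p = 0.00175), and 0.87 without SCC replicate 1 (1.4e-06). SMAD7 is rich in GC at 58.7%, and with the GC offset the value was 0.85 (edgeR, adjusted p = 2.0e-05). SMAD7 ranked 76 of 15881 by p, the highest rank of the 10 members.

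SMAD6 (ENSG00000137834, chromosome 15, 66702228 to 66782848), which competes for receptors and for SMAD4, was at 32.3, 23.7 and 24.2 CPM in SCC and at 17.5, 18.9 and 23.8 CPM in RCC replicates 1 to 3. RCC replicate 3 lay just above SCC replicate 2, so the groups overlapped. Its log2 fold change came to 0.42 (SE 0.147, edgeR, adjusted p = 0.162). It fell to 0.26 without SCC replicate 1 (0.164) and to 0.26 with the GC offset (0.158). Testing every gene with at least 1 count called it (log2 fold change 0.43, adjusted p = 0.00993), with 2.65% of genes called higher. The log2 ratio of SMAD6 to SMAD7 was 0.02 ± 0.03 in SCC and 0.59 ± 0.14 in RCC (SD, n = 3), without overlap (exact permutation p = 0.1, adjusted 0.114).

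Promoter windows of both inhibitory SMADs are shown because the pathway is known to feed back on these genes (RefSeq, GRCh38.p14, 250 bases before the start, 5′ to 3′ on the gene's strand). Capitals mark the SMAD palindrome GTCTAGAC in SMAD6 and TATAAA in SMAD7.
SMAD6, chr15:66701986-66702235, plus strand: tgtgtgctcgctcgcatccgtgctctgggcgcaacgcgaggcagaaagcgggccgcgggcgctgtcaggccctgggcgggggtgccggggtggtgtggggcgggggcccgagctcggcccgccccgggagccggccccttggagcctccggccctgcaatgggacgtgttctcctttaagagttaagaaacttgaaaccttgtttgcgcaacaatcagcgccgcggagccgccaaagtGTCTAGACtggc
SMAD7, chr18:48949334-48949583, minus strand, the second of its 3 starts: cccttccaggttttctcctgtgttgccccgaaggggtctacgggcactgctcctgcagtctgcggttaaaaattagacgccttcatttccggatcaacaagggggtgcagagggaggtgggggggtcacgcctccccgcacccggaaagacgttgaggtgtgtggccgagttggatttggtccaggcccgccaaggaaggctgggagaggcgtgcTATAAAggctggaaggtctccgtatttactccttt
The palindrome began 12 bases before the SMAD6 start. It was found in 64 of the 35116 windows (0.182%) and in 1 of the 16 windows of the 10 members. SMAD7, the member with the lowest p, held it in 0 of its 3 windows. The TATAAA of SMAD7 began 35 bases before the start. The AP-1 site TGANTCA occurred in 1 of the 16 windows, the most upstream of SMAD1, and TGACGTCA in 0. A match of letters is a description and no evidence of binding, and the absence of a match says only that these letters are not in this window.

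The signal-carrying SMADs did not pass the test. SMAD1 (ENSG00000170365, chromosome 4, 145481194 to 145558079) was at 8.31, 11 and 9.34 CPM in SCC and at 9.43, 8.74 and 8.78 CPM in RCC, and the groups overlapped. SCC over RCC gave a log2 fold change of 0.08 (SE 0.135, edgeR, adjusted p = 0.758), and -0.04 without SCC replicate 2. SMAD5 (ENSG00000113658, chromosome 5, 136132845 to 136188747) was at 97.7, 115 and 106 CPM in SCC and at 117, 121 and 117 CPM in RCC. Its SCC libraries were all below its RCC libraries, with a log2 fold change of -0.16 and a standard error of 0.074 (edgeR, adjusted p = 0.272). SMAD5 is poor in GC at 36.9%, and with the GC offset the value was -0.02 (0.839).

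Per gene length, SMAD5 was the most abundant SMAD of the 4 and SMAD1 the least in every library. SMAD5 was at 11.7 ± 1.00 FPKM in SCC and 13.0 ± 0.304 in RCC, and SMAD1 at 1.57 ± 0.229 and 1.48 ± 0.0566 (SD, n = 3). Summed FPKM of SMAD6 and SMAD7 was 0.509 to 0.819 of the summed FPKM of SMAD1 and SMAD5 in SCC, and 0.303 to 0.388 in RCC. This ratio was thus higher in each SCC library than in any RCC library, with SCC replicate 1 the highest. SMAD6 and SMAD7 are rich in GC (58.9% and 58.7%), SMAD1 and SMAD5 poor (39.2% and 36.9%), and the ratio was not corrected for GC content. With the GC offset the log2 fold changes of SMAD6, SMAD7, SMAD1 and SMAD5 were 0.26, 0.85, 0.18 and -0.02. The part of GC content in the ratio was not tested.

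**Figure D2:**
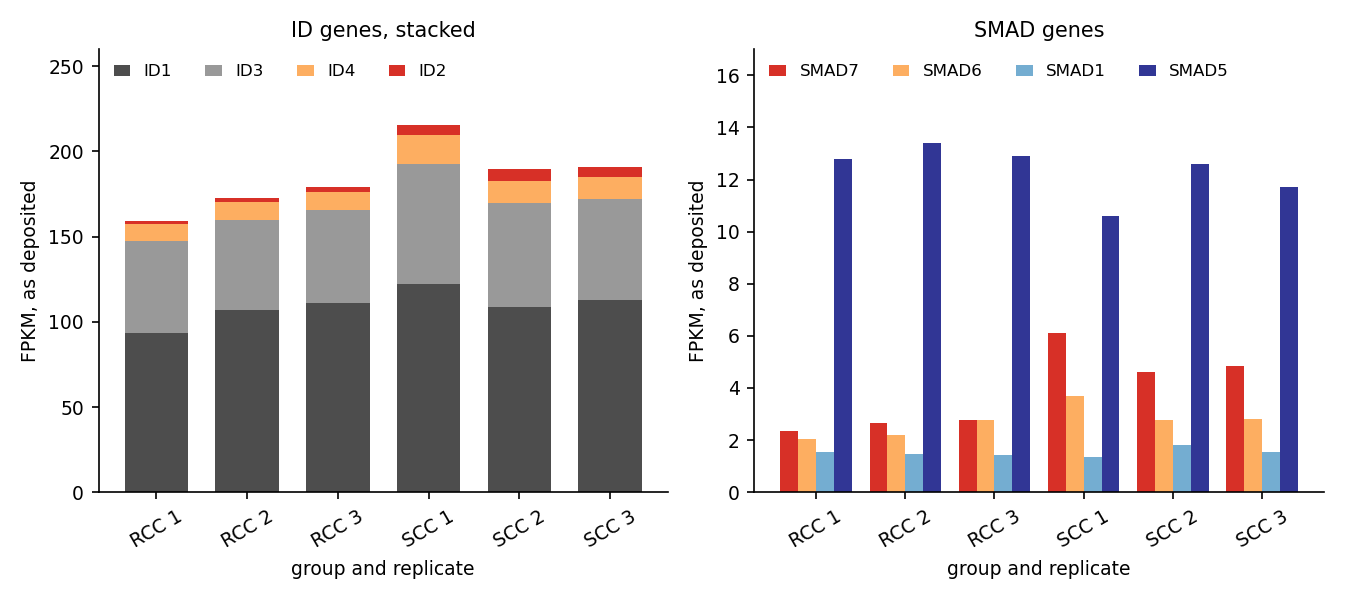
Deposited FPKM of the ID genes (left, stacked) and of the SMAD genes (right, side by side) in each RCC and SCC library, both axes from 0. ID1 and ID3 fill most of each left bar, while the SMAD7 bars stand at 4.60 to 6.11 FPKM in SCC and 2.34 to 2.78 FPKM in RCC.

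Neither receptor passed the test. BMPR2 (ENSG00000204217, chromosome 2, 202376936 to 202567751), the BMP type II receptor, was at 74.7, 75.6 and 80.6 CPM in SCC and at 73.4, 74.7 and 75.8 CPM in RCC. This gave a log2 fold change of 0.04 (SE 0.069, edgeR, adjusted p = 0.742). BMPR1A (ENSG00000107779, chromosome 10, 86756601 to 86932838), a type I receptor, was at 49.9, 53.7 and 58.7 CPM in SCC and at 56.7, 59.4 and 57.0 CPM in RCC. Its log2 fold change came to -0.09 (SE 0.081, edgeR, adjusted p = 0.526). The groups overlapped for both receptors. The log2 ratio of BMPR2 to BMPR1A was 0.51 ± 0.06 in SCC and 0.37 ± 0.04 in RCC (SD, n = 3), without overlap (exact permutation p = 0.1, adjusted 0.114). Per gene length the 2 receptors were close, BMPR2 at 6.25 ± 0.123 FPKM and BMPR1A at 5.04 ± 0.159 in RCC, and 6.42 ± 0.301 and 4.71 ± 0.415 in SCC (SD, n = 3).

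Across all 10 members the order of FPKM levels changed between groups where the called genes sit. In RCC the order was ID1, ID3, SMAD5, ID4, BMPR2, BMPR1A, SMAD7, ID2, SMAD6 and SMAD1, and SMAD7, ID2 and SMAD6 overlapped one another at 2.03 to 3.26 FPKM. In SCC, ID4 (13.0 to 17 FPKM) lay above SMAD5 (10.6 to 12.6), and ID2 and SMAD7 had moved up beside the receptors. There, BMPR2 overlapped ID2, ID2 overlapped SMAD7, and SMAD7 overlapped BMPR1A.

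**Figure D3:**
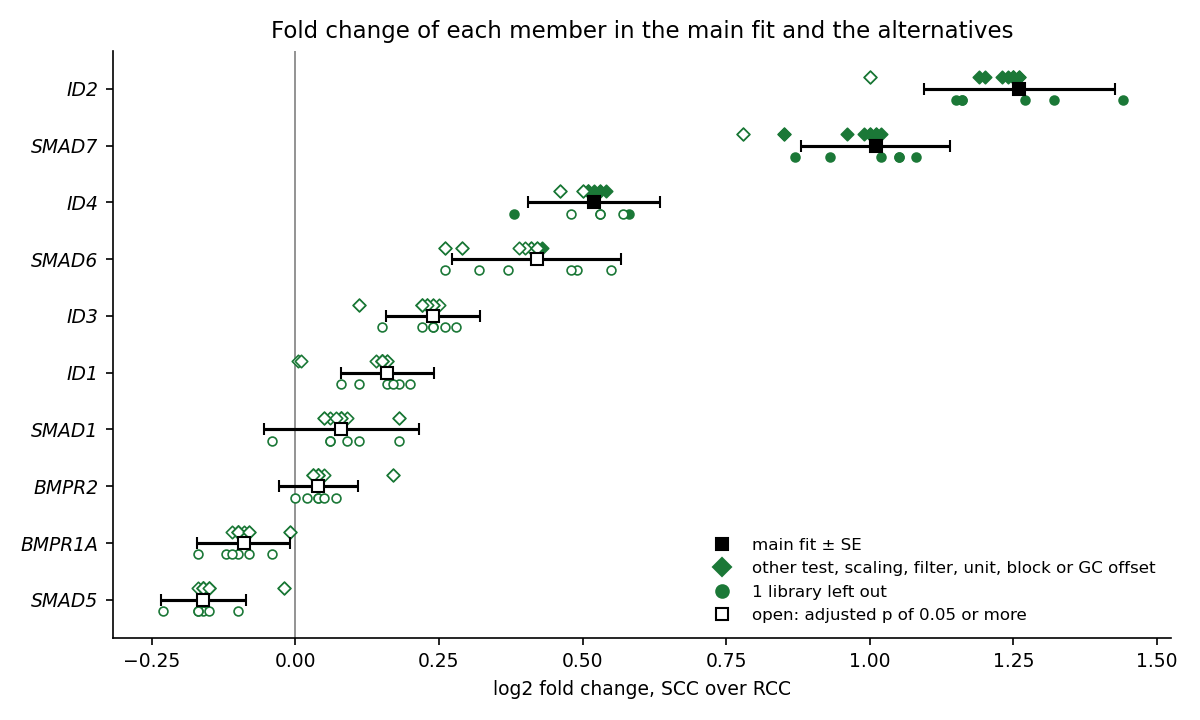
Log2 fold change of SCC over RCC (horizontal axis) for each member: black squares give the edgeR fit with its standard error, green diamonds other tests, scalings, filters, units, a block or a GC offset, and green circles fits without 1 library; open symbols have an adjusted p of 0.05 or more. ID2 ranges from 1.00 to 1.44 and SMAD7 from 0.78 to 1.08, while ID1 ranges from 0.0041 to 0.20.

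Outside the 10 members, 73 further genes of the BMP, ID and neighbouring pathways were counted by role, of which 46 were tested. BAMBI, TOB1, ATOH8 and CDKN1A rose in SCC and 0 genes fell, beside 1.69% and 0.378% of all tested genes. At an unadjusted p under 0.05, 13 of the 46 were higher and 1 was lower, beside the 11.4% and 8.27% of all tested genes. The median log2 fold change of the 46 was 0.11. The other 42 tested genes were not called.

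Among ligands 0 of 3 tested genes were called. BMP4, the one with the smallest p, was at 78.7, 71.2 and 76.6 CPM in SCC and at 65.8, 67.4 and 64.6 CPM in RCC, without overlap, but its log2 fold change of 0.20 was not called (edgeR, adjusted p = 0.175). BMP6 and BMP8B were tested and not called, and the other 10 ligands had at most 18 counts in any library. Among other receptors and co-receptors, 0 of 7 tested genes were called. Without adjustment 2 had p under 0.05, RGMB higher and ACVR2B lower, beside the 11.4% and 8.27% of all tested genes. RGMB, a BMP co-receptor, had the smallest p with a log2 fold change of 0.26 (edgeR, adjusted p = 0.195), or 0.15 without SCC replicate 1. SMAD4, the shared partner, was at 37.1 to 43.3 CPM in SCC and 38.6 to 43.9 CPM in RCC. SMAD9, the other BMP-linked SMAD and of these 2 the one with the smaller p, was at 4.60 to 5.93 and 5.48 to 6.50 CPM.

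Secreted antagonists gave 0 calls among 8 tested genes, 3 of them higher at an unadjusted p under 0.05, beside 11.4% of all tested genes. Their log2 fold changes ran from -0.27 to 1.22 with a median of 0.21, positive in 5 and negative in 3. The largest was that of a gene with at most 45 counts in any library. FSTL3, a follistatin-like binder of activin, had the smallest p, at 46.4, 29.9 and 33.6 CPM in SCC and 25.5, 26.3 and 27.0 CPM in RCC (log2 fold change 0.49, edgeR adjusted p = 0.110). FSTL3 was called in 3 of 17 alternatives: DESeq2 (0.0306), every gene with at least 1 count (4.1e-04) and without SCC replicate 2 (0.0211). Its log2 fold change was 0.21 under the GC offset (0.112) and 0.28 when SCC replicate 1 was dropped (0.0552), neither called. Among membrane and intracellular inhibitors, 2 of 10 were called higher, beside 1.69% of all tested genes. The log2 fold change was positive in 5 of the 10 and negative in 5, with a median of 0.05. BAMBI, a pseudoreceptor that blocks type I receptors and is itself a target of BMP signalling, was at 13.5, 9.82 and 12.2 CPM in SCC and at 7.78, 6.93 and 6.49 CPM in RCC. Its groups did not overlap, and its log2 fold change came to 0.75 (SE 0.147, edgeR, adjusted p = 0.0284). TOB1, an antiproliferative protein that can bind SMADs, was at 27.0, 24.1 and 24.7 CPM in SCC and at 19.0, 17.4 and 19.9 CPM in RCC. Its log2 fold change was 0.43 (edgeR, adjusted p = 0.0488). SMURF1 and SMURF2, the ubiquitin ligases that SMAD7 recruits, had log2 fold changes of 0.10 and 0.10 and were not called.

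Of the other BMP-SMAD targets, 6 of 12 were tested and 1 was called, beside 1.69% of all tested genes called higher. Without adjustment 4 of the 6 were higher with p under 0.05, beside 11.4% of all tested genes. All 6 had a positive log2 fold change, as did 8021 of the 15881 tested genes. ATOH8, a helix-loop-helix transcription factor, was at 14.6, 10.1 and 10.3 CPM in SCC and at 6.78, 6.64 and 6.66 CPM in RCC, without overlap and with SCC replicate 1 the highest. SCC over RCC gave a log2 fold change of 0.81 (SE 0.159, edgeR, adjusted p = 0.0283), or 0.61 without SCC replicate 1 (0.00645). With the GC offset it was 0.70 (edgeR, adjusted p = 0.00419). NKX2-5, HEY1, GATA2, HEYL and RUNX2 had log2 fold changes of 0.48, 0.76, 0.27, 0.25 and 0.12 and were not called. NKX2-5 was called by DESeq2, with every gene of at least 1 count, with a replicate block, and without SCC replicate 1 or 2. It was called in no other alternative, and the GC offset called none of the genes just named. The E proteins that ID proteins bind gave 0 calls among 3: TCF3, with the smallest p of them, was at 215, 147 and 158 CPM in SCC and 142 to 148 CPM in RCC (edgeR, adjusted p = 0.274). TCF4 and TCF12 had log2 fold changes of -0.17 and -0.03.

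TGF-beta-SMAD3 targets gave 0 calls among 5 tested genes. Without adjustment 1 of them was higher with p under 0.05, beside 11.4% of all tested genes. Their log2 fold changes were positive in 3 and negative in 2, with a median of 0.17. TGFBI, a matrix protein, had the smallest p and a log2 fold change of 0.25 (edgeR, adjusted p = 0.0756). It was called with the GC offset (0.22, adjusted p = 0.0115) and without SCC replicate 1 (0.23, 0.005). CTGF, a matrix growth factor, had a log2 fold change of -0.01. Of the CDK inhibitors, CDKN1A was at 46.3 to 48.4 CPM in SCC and 28.8 to 30.8 CPM in RCC (log2 fold change 0.69, edgeR adjusted p = 7.5e-04), and CDKN1C was not called. CDKN2A and CDKN2B, which this line is known to have lost, had at most 10 counts in any library. BAMBI, TOB1 and ATOH8 were not called without RCC replicate 1, 2 or 3 (adjusted p = 0.0981 to 0.234), and BAMBI and TOB1 were also lost without SCC replicate 3 (0.0872 and 0.117). TOB1 was further lost with upper-quartile scaling (0.0583) and with a minimum of 10 counts in every library (0.0532), and BAMBI, TOB1 and ATOH8 on all FPKM settings (0.0567 to 0.375). In all, BAMBI was called in 10 of 17 alternatives, TOB1 in 7, ATOH8 in 11 and CDKN1A in 17.

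**Figure D4:**
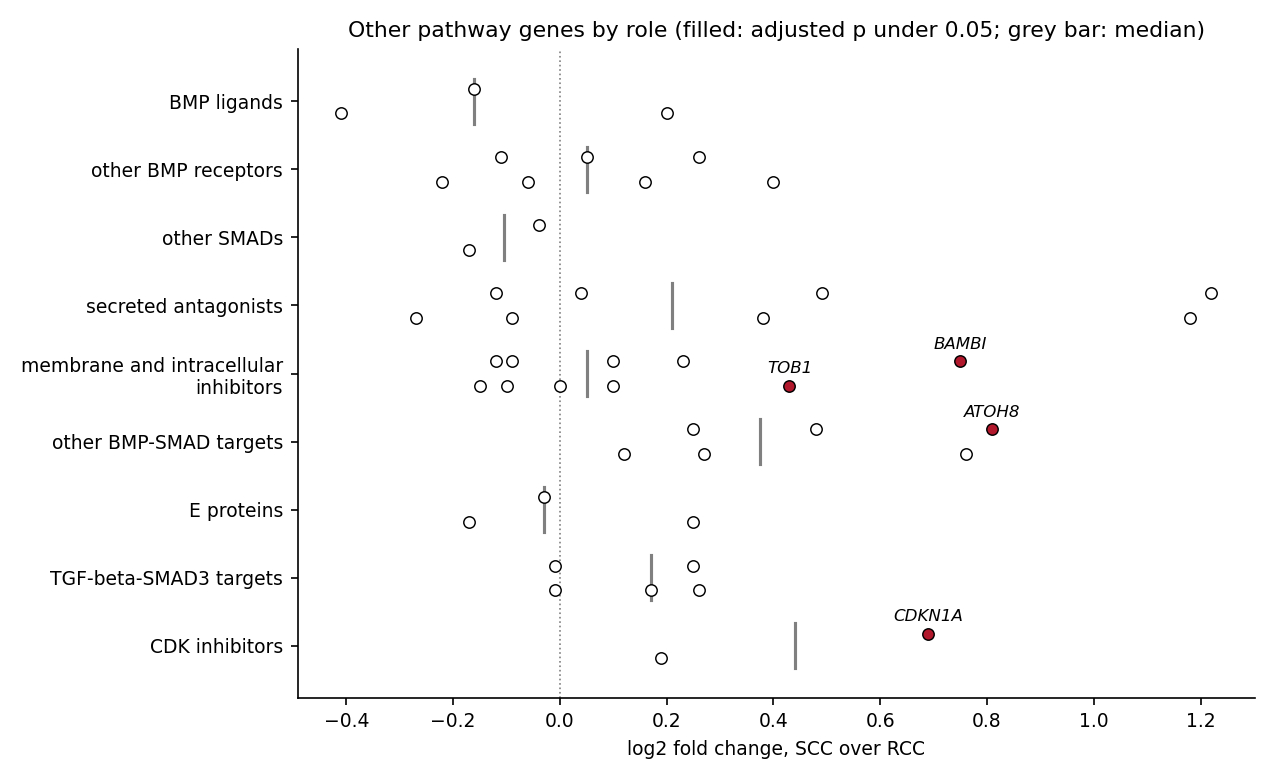
Log2 fold change of SCC over RCC (horizontal axis) for the 46 tested genes of the pathway lists, 1 point per gene in rows by role; filled points have an adjusted p under 0.05 and grey bars are the medians. The 4 filled points, BAMBI, TOB1, ATOH8 and CDKN1A, all lie to the right of 0, while ligands, receptors and other SMADs hold open points only.

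For each called member, the 3 protein-coding genes of nearest profile were taken from 10366 genes with a mean of at least 5 CPM. Likeness was the root mean square difference of log2(CPM + 0.5) over the 6 libraries after centring each gene on its mean. For ID2 they were RGS2, a regulator of G protein signalling (0.123), ZC3H12A, an RNase of inflammatory mRNAs (0.153), and TRIB1, a pseudokinase (0.172), where the median candidate gave 0.633. For SMAD7 they were GADD45B, a stress sensor (0.060), MAFF, a small bZIP factor (0.061), and ALPP, placental alkaline phosphatase, whose close copies can share its reads (0.068), against a median of 0.513. RCC replicate 3 was the highest of its group for ID2, SMAD7 and the 3 neighbours of each. SCC replicate 1 was the highest of its group for SMAD7, ID4 and the 3 neighbours of each. It was also the highest for ZC3H12A and TRIB1, but not for ID2 or RGS2. For ID4 they were SLC9A3R2, a membrane scaffold (0.034), MT-ND1, a mitochondrially encoded subunit of complex I with nuclear pseudogene copies (0.035), and CITED2, a transcriptional co-regulator (0.036), against a median of 0.294. Since these genes were chosen for a profile like that of a called member, the choice itself fixed the direction and near size of their difference, and their values are a description. Log2 fold changes were 0.95 to 1.35 for the neighbours of ID2 and SMAD7 and 0.46 to 0.47 for those of ID4. The 3 neighbours of ID4 had an adjusted p of 0.126 to 0.202 when any 1 RCC library was left out, and SLC9A3R2 was at 0.15 with the GC offset (edgeR, adjusted p = 0.183).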

How the data were processed

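For 6 libraries of total RNA, the authors deposited raw counts of each gene as whole numbers, and the matching FPKM. Per the submitters' processing notes, HISAT2 2.0.5 and featureCounts 1.5.0-p3 were used. Genome build, read filters and use of strand were not given in the sources used here. IDs and positions of all 58735 rows were those of GENCODE 29 (GRCh38). For 27 genes whose names had turned into dates, the name was restored from the ID.

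Counts were tested with edgeR 4.0.16 (R 4.3.3): filterByExpr (minimum count 10, by group), TMM scaling, glmQLFit on group, two-sided, Benjamini-Hochberg adjustment over all 15881 tested genes, with calls at an adjusted p under 0.05. Standard errors are the absolute log2 fold change over the square root of F. CPM uses TMM-scaled totals. Pairs of members were compared as log2 ratios of CPM + 0.5. The edgeR, DESeq2, limma, block and GC fits were run on simulated counts. There, edgeR recovered 98% to 100% of genes changed by a log2 fold of 1 or 2 in either direction. The changed genes had at least 100 expected counts at the mean library size, and all genes shared 1 fixed dispersion. Smaller folds and genes of lower count were not changed, so their recovery is not known. The simulation held no GC bias, replicate effect or outlying library, so it could not test the block or GC fits under such conditions. Text names all 10 members, called or lowest-p genes of each pathway list, and 3 nearest profiles per called member. Other genes named were chosen after their values were seen. The members, lists and tests were chosen with earlier results of these data known. Alternatives were DESeq2 1.42.0, RLE and upper-quartile scaling, filters, limma 3.58.1 on log2(FPKM + pseudocount) for genes at 1 FPKM or more in at least 3 libraries, a replicate block, a GC offset (lowess, span 0.3, longest transcript, 15874 genes with a value) and each library left out. No replicate pair agreed within sampling noise. Replicates were described only as biological, so p-values measure the spread between these libraries. Promoter sequences came from RefSeq (GRCh38.p14) for all 10 members. The values of 1 gene of the pathway lists are not reported here.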

Additional observations from a re-analysis of the deposited data

How the results depend on the processing

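Of the 10 members, ID2 and SMAD7 were called in 16 of 17 alternatives each. The exception for both was log2(FPKM + 1) without a filter, with log2 fold changes of 1.00 (adjusted p = 0.113) and 0.78 (0.128). ID4 was called in 10 of 17 and lost its call on log2(FPKM + 1) with a filter (0.46) and without one (0.46) and on log2(FPKM + 0.1) (0.50); its fits without 1 library ranged from 0.38 to 0.58. SMAD6 was called in 1, every gene with at least 1 count (0.43). ID1, ID3, SMAD1, SMAD5, BMPR1A and BMPR2 were called in 0 of 17. The sign of SMAD1 turned without SCC replicate 2 (-0.04, range of these fits -0.04 to 0.18) and that of BMPR2 without SCC replicate 3 (-0.00097, range to 0.07). No ratio of 2 members changed sign in any of its 9 alternatives.

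Against 268 genes higher and 60 lower, DESeq2 gave 480 and 170, every gene with at least 1 count 995 and 315, and the GC offset 490 and 288. The FPKM values gave 130 and 36 on log2(FPKM + 1), 117 and 34 on log2(FPKM + 0.1) and 48 and 1 without a filter. Fits without 1 library gave 99 to 642 higher and 8 to 343 lower. Pathway genes called higher, 4 in the main analysis, ranged from 1 to 6 without 1 library and numbered 1, 1 and 1 on the 3 FPKM settings. The cause was not tested.

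The labels name no donor, day or batch shared by libraries of the same replicate number, so the numbers were not taken to pair them. Deviations of such libraries from their group means had correlations of -0.0179, 0.0424 and -0.0989. With so few libraries, and SCC replicate 1 set apart, these correlations cannot decide whether libraries were paired. With the replicate block 350 genes were higher and 106 lower, ID2 had 1.26 and SMAD7 1.00, and no member changed its call, while TOB1 lost it (adjusted p = 0.0507). The block with the GC offset gave 625 and 528, and 1 pathway gene lower (NBL1). Counts per library were 104 to 129 for ID2 in RCC and 157 to 224 for SMAD1 in all 6 libraries.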
